A study of Mus musculus with 10 samples.

Results

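The noise response of the 129X1/SvJ cochlea was measured on 6 of the 10 arrays of the series, those titled 129X1/SvJ or, on the last array of each group, 129XI/SvJ. Both spellings were taken as 1 strain, an inbred mouse strain described in the labels as resistant to noise damage. All mice were female and 10 weeks old. The noise was a 10-kHz octave band played for 1 h at 105 dB SPL, and the mice were killed 6 h after the exposure. Controls spent a sham session in the chamber with no sound. Each array carried the labelled RNA of a pool of 8 mice, so that a replicate, biological per the labels, is a pool, with 3 noise and 3 control pools and no value for a single mouse. The other 4 arrays, 2 control and 2 noise arrays of the strain B6.CAST treated the same way, served to estimate the spread and to test whether an effect differed between strains. The tissue was dissected from the membranous labyrinth, which holds hair cells, supporting cells, the stria vascularis, neurons, glia, vessels and blood. In such bulk samples, fewer cells of a type and less RNA per cell cannot be told apart.

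Intense sound overloads the hair cells that turn vibration into nerve signals, and the cells around them react within minutes to hours. In a stressed tissue, kinase cascades and calcium first switch on immediate early genes, whose products include the Fos and Jun subunits of the AP-1 transcription factor, the Egr zinc finger factors and the Nr4a nuclear receptors. Cytokine signalling through NF-kappaB and STAT3 then turns on chemokines, which draw monocytes and neutrophils from the blood, and inhibitors such as Socs3 that limit the signal. Heat shock proteins refold damaged proteins, and growth arrest genes such as the Gadd45 family answer DNA damage and other stress.

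Signals are the deposited intensities of the arrays, and changes are differences of group means on the log2(signal + 16) scale after quantile normalization, with their standard errors (SE, n = 3 noise and 3 control arrays). A probe set was called when its adjusted p from limma (Benjamini-Hochberg) was under 0.05. The dimmest 30% of the 12422 non-control probe sets were left out. Of the 8695 tested, 45.1% were higher with noise by any amount, and 44 were called, which is 0.506%. Of these, 40 were higher with noise (0.46% of those tested) and 4 were lower (0.046%). The 3 noise arrays lay outside the range of the 3 control arrays for all 44. The calls rest on the same values, so this is no separate support for them. Over all probe sets, the noise arrays lay wholly above the controls for 6.44% and wholly below for 9.65%, and 11.5% had an unadjusted p under 0.05. The called probe sets with 1 gene symbol stood for 35 genes that rose and 4 that fell. The median change over all probe sets was -0.04, with 5% below -0.60 and 5% above 0.69, so the called rises, with a median of 1.82, lay far from the bulk and the called falls near its lower edge.

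**Figure D1:**
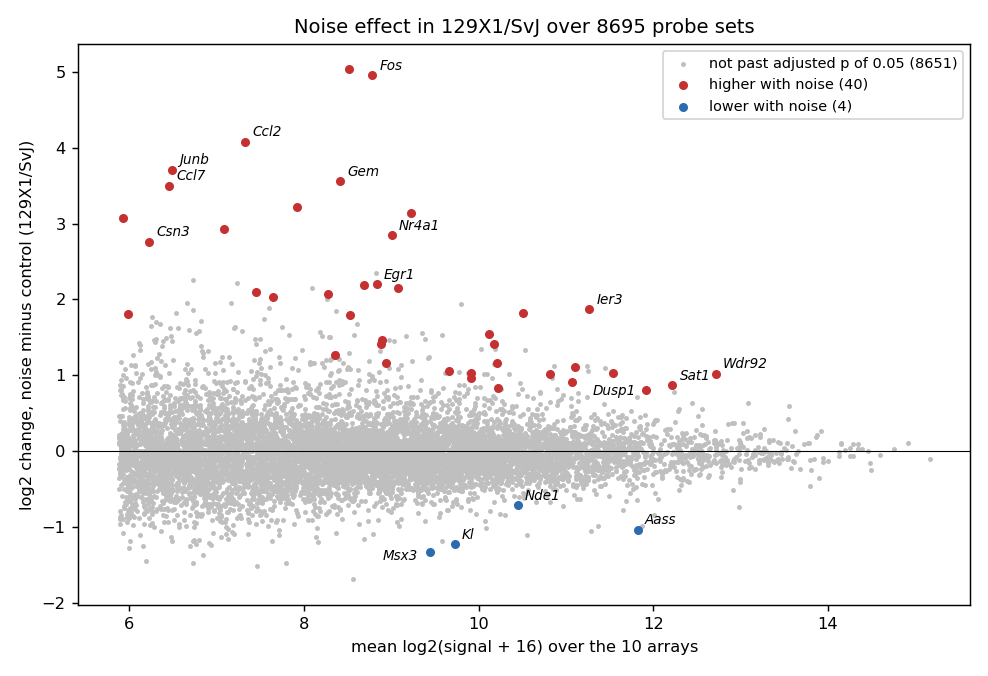
Change with noise in 129X1/SvJ (log2, noise minus control) against the mean log2(signal + 16) over the 10 arrays, 1 point for each of 8695 probe sets. The 40 called rises reach 5.03, while the 4 called falls lie between -0.71 and -1.34. The unlabelled point at the top is a probe set without a gene name here.

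The probe set with the greatest change, 104646_at, has no gene name here. Its signal was 97.3, 28.4 and 36.8 on the control arrays 1 to 3 and 1796, 2476 and 2189 on the noise arrays 1 to 3. All 3 noise arrays were thus far above every control array, with a change of 5.03 ± 0.42 (adjusted p from limma 0.00027). Another unnamed probe set, 93078_at, rose by 1.03 ± 0.12.

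Promoters are shown for 5 of the genes that rose together, to set the sequence just before their start sites beside the values that follow: Fos, the chemokine Cxcl1, the phosphatase Dusp1, the thyroid hormone deiodinase Dio2 and the tight junction gene Cldn4. All 5 hold a match marked below. The promoters of other genes that rose, among them Nr4a1, Socs3, Junb, Gadd45a and Hspa1a, hold none, so the 5 do not stand for the whole set. The sequences are the 250 bases before the start site in RefSeq (GRCm38.p6), written 5′ to 3′ on the strand of the gene. Capitals mark matches, on either strand, to the TATA box, the cyclic AMP response element, the core of that element, the AP-1 site or the NF-kappaB site. The letters searched are given with the counts after the sequences, except for motifs with other ambiguous letters, among them the NF-kappaB site, which are given by name. Each full cyclic AMP response element also holds the core on both strands. The Fos promoter lies at chr12:85473640-85473889, plus strand, that of Cxcl1 at chr5:90890995-90891244, plus strand, that of Dusp1 at chr17:26508473-26508722, minus strand, that of Dio2 at chr12:90739039-90739288, minus strand and that of Cldn4 at chr5:134946935-134947184, minus strand.
Fos: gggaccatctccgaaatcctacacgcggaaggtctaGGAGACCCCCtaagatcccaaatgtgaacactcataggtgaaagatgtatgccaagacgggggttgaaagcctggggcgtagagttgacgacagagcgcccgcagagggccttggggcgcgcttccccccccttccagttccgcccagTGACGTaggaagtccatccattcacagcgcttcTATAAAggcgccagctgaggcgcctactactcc
Cxcl1: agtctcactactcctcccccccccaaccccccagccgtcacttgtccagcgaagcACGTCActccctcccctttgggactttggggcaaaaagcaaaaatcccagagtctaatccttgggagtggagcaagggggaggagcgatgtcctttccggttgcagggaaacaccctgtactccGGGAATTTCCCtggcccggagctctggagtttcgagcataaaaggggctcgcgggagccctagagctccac
Dusp1: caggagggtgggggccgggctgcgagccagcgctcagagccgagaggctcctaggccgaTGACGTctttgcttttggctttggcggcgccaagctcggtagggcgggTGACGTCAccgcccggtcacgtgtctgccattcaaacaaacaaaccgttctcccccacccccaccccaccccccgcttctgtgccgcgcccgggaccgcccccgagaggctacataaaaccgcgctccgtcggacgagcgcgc
Dio2: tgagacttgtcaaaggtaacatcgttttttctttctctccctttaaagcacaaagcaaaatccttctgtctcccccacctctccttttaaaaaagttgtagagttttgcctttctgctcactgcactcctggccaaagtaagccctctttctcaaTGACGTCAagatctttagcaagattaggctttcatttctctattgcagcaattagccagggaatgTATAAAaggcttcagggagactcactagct
Cldn4: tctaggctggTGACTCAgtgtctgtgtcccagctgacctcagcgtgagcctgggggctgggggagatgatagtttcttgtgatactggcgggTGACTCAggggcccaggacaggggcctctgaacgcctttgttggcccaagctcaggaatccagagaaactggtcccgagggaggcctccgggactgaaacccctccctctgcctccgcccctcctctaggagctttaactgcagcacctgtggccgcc

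Of the 35 genes that rose, 26 had a promoter in the RefSeq table. The others, among them Egr1, Ccl2, Ccl7, Gem, Csn3 and Hbegf, were not searched. The core of the cyclic AMP element, TGACGT, was found in 7 of these 26 genes (Atf3, Cxcl1, Dio2, Dusp1, Fos, Mapk6 and Timp1), against 7.29% of the 27025 genes with a promoter and 6.47% of all promoters. It was also in 2 of the 4 genes that fell (Aass and Msx3), and Msx3 held the TATA box as well. The full element TGACGTCA was in Dio2 and Dusp1, 7.69% of the 26 genes that rose against 1.77% of the 27025. By the same shares, TATAAA was in Dio2, Fos and Gadd45b (11.5% against 14.3%) and TGANTCA in Cldn4 and Emp1 (7.69% against 7.82%). The NF-kappaB site was in Cxcl1, Fos and Ier3 (11.5% against 4.46%). In these windows, 0 of the 26 genes had a match to the CArG box (1.62% of the 27025), to TTCCNGGAA (STAT site, 1.09%) or to the heat shock element (0.514%). At shares this low, 26 genes are too few for 0 matches to tell anything, and sequence further upstream was not searched. These matches describe letters and were not tested against the response.

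Gene lists are described below by the brightest probe set of each gene. Over all 6506 genes taken this way, 43.2% were higher with noise, the median change was -0.05, and 0.492% were called higher and 0.0615% lower. Among genes of AP-1 and its partners, all 11 tested were higher, with a median of 1.51, and 2 were called. Fos had a signal of 122, 76.4 and 100.1 on the control arrays and 7581, 2489 and 2548 on the noise arrays. Every noise array was far above every control array, and the first noise array was the brightest. The change of Fos was 4.95 ± 0.38 (adjusted p from limma 0.00019). Atf3, a stress-induced factor of the ATF family, rose by 2.15 ± 0.34 by its brightest probe set, while another gave 1.07 ± 0.33 and was not called.

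Junb, another AP-1 subunit, was read by a pair of probe sets. One rose by 3.71 ± 0.70, with 13.6, 21.1 and 25.5 on the control arrays and 2015, 243 and 196 on the noise arrays, and the brighter one changed by 2.0 ± 0.49 and was not called (adjusted p from limma 0.16). The groups did not overlap for either, and noise 1 was the brightest for both. Without noise 1, the change of the called probe set was 2.68 (adjusted p from limma 0.014). Its call was lost, however, without any 1 of the 3 controls (adjusted p from limma up to 0.19). With such dim controls, it also passed the filter on low values through noise arrays. The partners Jund (1.09 ± 0.25), Jun (1.09 ± 0.26), Mafk (1.04 ± 0.22), Fosb (1.68 ± 0.53) and Maff (1.70 ± 0.47) were higher without passing. The median of the list was 2.62 on the first noise array and 0.83 on each of the others, taken against the mean of the controls. Without control 2 and noise 1 it was 0.81 (an alternative added after seeing the data).

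The other early transcription factors showed the same direction: all 18 tested genes of the Egr, Nr4a and Klf families and related factors were higher, with a median of 0.65, and 3 were called. Nr4a1, an orphan nuclear receptor induced by calcium and growth signals, read 349, 259.8 and 210.1 in controls and 3270.2, 1400.1 and 1735 after noise. All noise arrays lay above all controls, and the first was again the brightest. Its change was 2.84 ± 0.32 (adjusted p from limma 0.002). Ier3, an early gene that limits cell death under NF-kappaB, read 1189, 1256 and 1476 in controls and 5479.6, 4991 and 3826 after noise. The 3 noise arrays were close to one another and all above the controls, with a change of 1.87 ± 0.16. Egr1, a zinc finger factor, rose by 2.20 ± 0.41, and its changes on the noise arrays were 3.35, 1.60 and 1.64. Klf4 (0.74 ± 0.16), Ier2 (1.02 ± 0.23), Nr4a2 (1.27 ± 0.30) and Bhlhe40 (1.23 ± 0.27) did not pass.

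**Figure D2:**
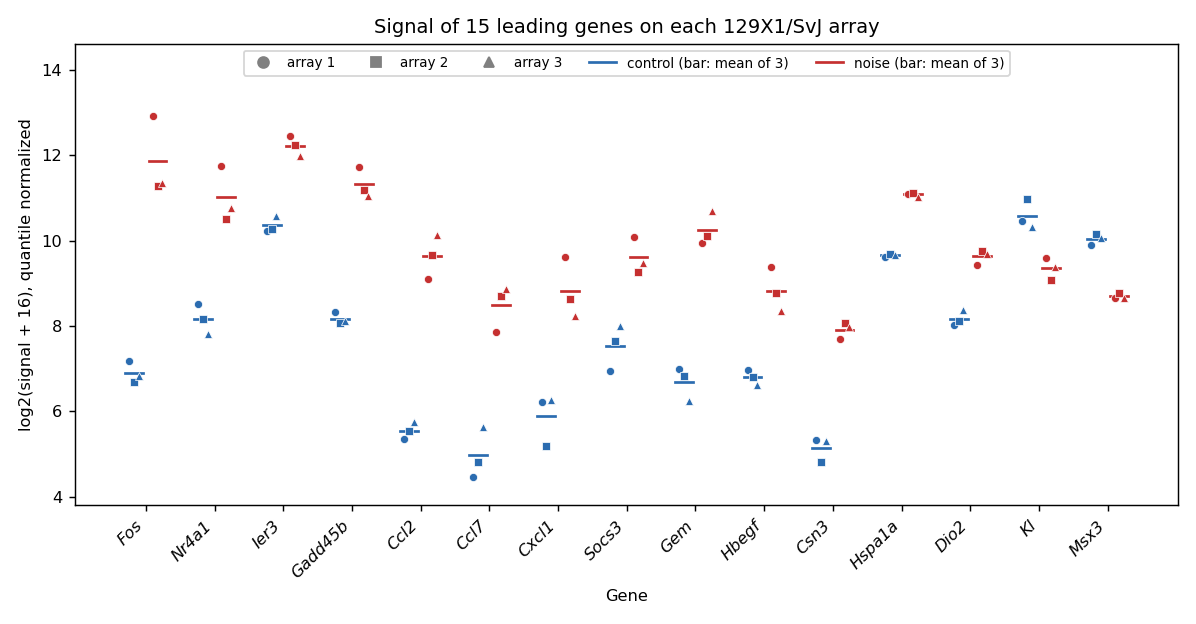
Log2(signal + 16) of 15 leading genes on each 129X1/SvJ array, after quantile normalization, with controls in blue, noise in red, a symbol for each array number and a bar at the mean of 3 arrays. For every gene shown the noise arrays lie wholly above the controls, or wholly below them for Kl and Msx3. Among the noise arrays, the first (circle) is the highest for Fos, Nr4a1, Ier3, Gadd45b, Cxcl1, Socs3, Hbegf and Kl. It is the lowest of them for Ccl2, Ccl7, Gem, Csn3, Dio2 and Msx3.

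Genes that damp these signals were higher too: all 14 tested genes for phosphatases, mRNA decay factors and other feedback regulators, with a median of 0.44 and 3 called. Dusp1, a phosphatase that switches off MAP kinases, rose by 0.80 ± 0.14 from an already high level. Zfp36l2, which speeds the decay of mRNAs, rose by 1.01 ± 0.15, and Rgs16, which shortens G protein signals, by 1.27 ± 0.22. Zfp36, a relative of Zfp36l2, changed by 1.46 ± 0.42 and was not called, with the first noise array at 2299 and the others at 541 and 872. The kinase Map2k3, which activates p38, rose by 1.06 ± 0.17 on 1 probe set, while the brightest gave 0.87 ± 0.19 and was not called, and Mapk6 rose by 0.96 ± 0.18.

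Of 11 tested growth arrest and p53 target genes, 9 were higher and 2 were called, with a median of 0.81 (0.53 without control 2 and noise 1). Gadd45b, a stress sensor that activates kinase cascades, read 303, 240.1 and 264 in controls and 3252, 2289 and 2092 after noise on its brightest probe set. The groups were far apart and each was tight, with a change of 3.14 ± 0.23, and a second probe set gave 2.19 ± 0.25, also called. Its relative Gadd45a rose by 1.17 ± 0.15, with a spread of at most 0.07 (SD of log2 values) within either group. The cell cycle inhibitor Cdkn1a changed by 0.97 ± 0.24 and the stress factor Ddit3 by 0.62 ± 0.16, and neither passed. Ccng1 (-0.63) and Mdm2 (-0.30), both p53 targets, were the 2 lower ones. Phlda1, an early gene that slows growth factor signalling, rose by 1.82 ± 0.21 (adjusted p from limma 0.002).

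Chemokines made up 3 of the largest rises. Ccl2, which attracts monocytes, read 22.2, 25.2 and 41.5 in controls and 524, 784 and 1122 after noise, a change of 4.08 ± 0.41 (adjusted p from limma 0.00083). Ccl7, a close relative, read 5.4, 9.4 and 37.6 and 242, 399 and 469, a change of 3.50 ± 0.53. For both, the controls were near the dimmest signals on the array, and the first noise array was the lowest of the 3 noise arrays, unlike for Fos. Both passed the filter on low values through noise arrays. Cxcl1, which attracts neutrophils, read 53.2, 16.5 and 64.4 in controls and 744, 378 and 289 after noise, a change of 2.93 ± 0.41, and here the first noise array was the highest. A second probe set of Cxcl1 gave 3.07 ± 0.47, also called, with 5.5, 14.4 and 7.9 in controls. With any 1 noise array removed it fell under the filter, so it entered the test through its noise arrays. Of all 14 tested chemokines, these 3 included, 8 were higher and 6 lower. The median was 0.44, but 0.12 on the 129X1/SvJ arrays alone, 0.26 as the mean of all probe sets of a gene and 0.79 with a pseudocount of 1. Cxcl10 (1.14 ± 0.36), Ccl5 (1.45 ± 0.47) and Ccl12 (1.08 ± 0.53) did not pass.

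In the pathway of interleukin-6, STAT3 and the C/EBP factors, 16 of 21 tested genes were higher, the median was 0.70, and 4 were called. Socs3, the feedback inhibitor that STAT3 induces, read 103, 172 and 241 in controls and 1023, 594 and 720.3 after noise on its brightest probe set. The noise arrays were all above the controls, which themselves spread more than for Gadd45b, and the change was 2.07 ± 0.32. A dimmer probe set of Socs3 gave 3.23 ± 0.41, also called. The transcription factor Cebpd rose by 1.55 ± 0.20, the kinase Pim1 by 1.16 ± 0.18 and Timp1, an inhibitor of matrix proteases, by 1.41 ± 0.26. Stat3 itself (0.70 ± 0.15), Cebpb (1.33 ± 0.27) and Osmr, the receptor of oncostatin M (1.17 ± 0.30), did not pass. Lcn2, an iron-binding protein of neutrophils, changed by 1.53 ± 0.60 with 2259.7 on noise 1, 522 on noise 2 and 682 on noise 3, and was not called. The median of this list was 0.72 without control 2 and noise 1.

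Among NF-kappaB subunits, regulators and targets, 15 of 20 tested genes were higher with a median of 0.52, and 0 were called by limma, with 9 at an unadjusted p under 0.05. Nfkbia, the inhibitor that NF-kappaB induces, changed by 1.05 ± 0.20 and just missed the threshold (adjusted p from limma 0.051). Bcl3, a nuclear partner of NF-kappaB, changed by 2.21 ± 0.43 with the same adjusted p, and its first control array (165) stood above the others (36.3 and 40.7). The adhesion molecule Icam1, which leukocytes bind on vessels, changed by 1.59 ± 0.36, and the factor Irf1 by 1.07 ± 0.23. The noise arrays lay above the controls for all 4 genes, which were picked by their p from the same arrays. Of the TNF and interleukin-1 genes, 6 of 11 were higher and 0 were called (3 at an unadjusted p under 0.05), with Cd14, a receptor for bacterial products, at 0.94 ± 0.20. Genes for leukocyte adhesion had a median of 0.09 over 9 genes with 0 called (1 at an unadjusted p under 0.05). Type I interferon genes had a median of -0.01 over 15 (0.16 without quantile normalization) with 0 called (4 at an unadjusted p under 0.05), with Rsad2 at 1.04 ± 0.29 and Psmb9 at -1.09 ± 0.43.

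Of 5 tested EGF receptor ligands and receptors, Hbegf was the single call. Hbegf, a membrane-bound ligand of the EGF receptor that is shed at wounds, read 103, 85 and 86.0 in controls and 629.9, 415 and 317 after noise. The controls were nearly equal and the noise arrays well above them, with a change of 2.03 ± 0.26 (adjusted p from limma 0.0033). The other tested members of that family were not called: Egf at -0.42 ± 0.18, Tgfa at 0.22 ± 0.31, Erbb3 at 0.09 ± 0.16 and Egfr at 0.06 ± 0.27. Of 12 matrix proteases, plasminogen activators and inhibitors, 11 were higher with a median of 0.72, and 2 were called, Timp1 and the membrane protease Mmp14 (0.83 ± 0.15). Tissue plasminogen activator Plat (0.69 ± 0.13, adjusted p from limma 0.051) and the protease inhibitor Serpina3n (0.91 ± 0.25) did not pass. The median of this list was 1.32 on the first noise array and 0.51 and 0.37 on the others. Secreted matrix and growth factor genes had a median of 0.24 over 22, and 0 were called (6 at an unadjusted p under 0.05), led by the matrix protein Ccn1 at 1.57 ± 0.31.

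Other called genes on no list here, picked out by their known roles after their values were seen, were the tight junction protein Cldn4 (1.79 ± 0.34), the keratin Krt8 (1.04 ± 0.17), the membrane protein Emp1 (0.91 ± 0.14) and the nuclear lamin Lmna (1.11 ± 0.18). A second probe set of Lmna gave 0.35 ± 0.17 and was not called. Emp1 read between 1819 and 2204 in controls and between 3643 and 3771 after noise, so its noise arrays were nearly equal, whereas Cldn4 reached 1442 on noise 1, with 559 and 662 on noise 2 and 3.

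Of the heat shock genes, 1 was called. Hspa1a, the stress-inducible HSP70, read 785, 835 and 790.0 in controls and 2122, 2189 and 2068 after noise. Both groups were tight and well apart, which made a change of 1.42 ± 0.15 with an adjusted p from limma of 0.0015. Its near-identical neighbour Hspa1b changed by 1.03 ± 0.21 (adjusted p from limma 0.063), and probes of these genes can share targets. The constitutive Hspa8 was at -0.20 ± 0.18 and the mitochondrial Hspd1 at -0.02 ± 0.13, and of the 20 genes tested 13 were higher with a median of 0.17. In the endoplasmic reticulum list 0 of 17 were called (3 at an unadjusted p under 0.05), with a median of 0.06 (-0.05 with array weights), Atf4 at 0.34 ± 0.10 and the chaperone Hspa5 at 0.22 ± 0.15. Dnajb9, a chaperone of that compartment, rose by 2.10 ± 0.31 on 1 probe set, but its brighter probe set gave 0.02 ± 0.29, so the probe sets disagreed.

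Of 15 metallothioneins and NRF2 targets, 12 were higher with a median of 0.27, and 0 were called (4 at an unadjusted p under 0.05). Heme oxygenase Hmox1 was at 0.68 ± 0.15, the glutathione synthesis enzyme Gclc at 0.56 ± 0.19 and the quinone reductase Nqo1 at -1.03 ± 0.44. Superoxide dismutases, peroxidases and peroxiredoxins were split 6 to 6 with a median below 0.01 in size, and 0 were called at either an adjusted or an unadjusted p under 0.05. Sod1, the cytosolic superoxide dismutase, was at -0.32 ± 0.17. Sat1, which breaks down polyamines and answers many stresses, rose by 0.87 ± 0.10.

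Glucocorticoid-induced genes, which can report handling stress, were higher for 18 of 21, with a median of 0.41 and the 2 calls Cebpd and Dusp1, described above. Their median was 0.94 on the first noise array and 0.21 and 0.18 on the others, and without control 2 and noise 1 it was 0.19. In this list 8 genes had an unadjusted p under 0.05. Fkbp5 (-0.02 ± 0.41), Per1 (0.06 ± 0.34) and Tsc22d3 (0.27 ± 0.46), named here as classical targets of the hormone receptor, were not called. The part of handling stress was not tested. Among 14 clock genes, 0 were called (3 at an unadjusted p under 0.05), with a median of 0.11, Bhlhe40 at 1.23 ± 0.27 and Dbp at -0.92 ± 0.30. Cholesterol synthesis genes had 0 calls among 14, with 1 at an unadjusted p under 0.05, and a median of 0.11. Without control 2 and noise 1, the clock median was 0.02 and the cholesterol median 0.25. BCL2 family and caspase genes were split 9 to 9, and 0 were called (2 at an unadjusted p under 0.05). Hypoxia and glycolysis genes had a median of 0.01 over 24 (-0.01 without quantile normalization), and 0 were called (4 at an unadjusted p under 0.05).

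**Figure D3:**
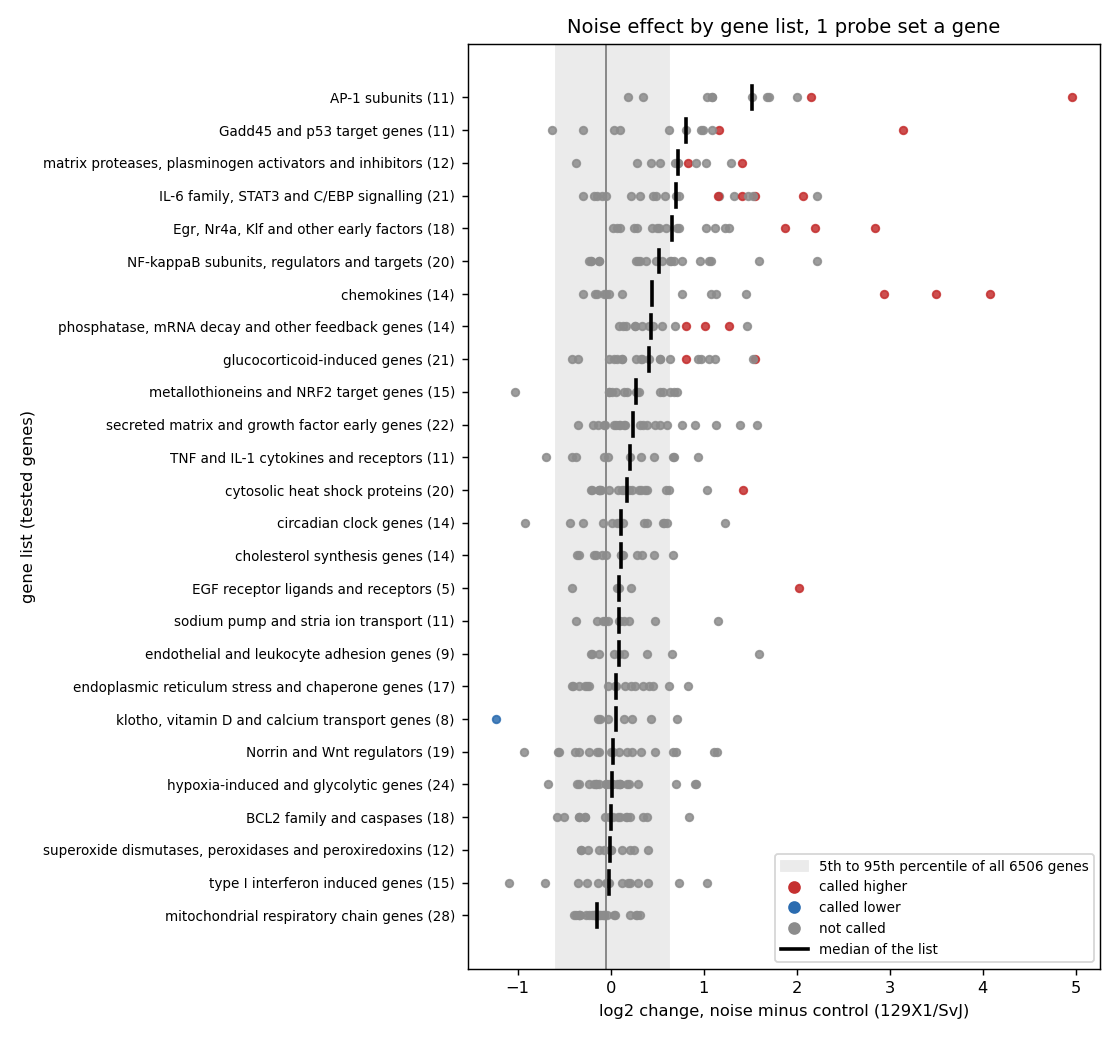
Change with noise in 129X1/SvJ (log2, noise minus control) of every tested gene of 26 pathway lists, 1 point a gene, with the median of each list as a black bar and the 5th to 95th percentile of all 6506 genes in grey. The AP-1 list has the highest median (1.51) and the mitochondrial list the lowest (-0.15). Called genes are coloured.

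Several of the strongest rises belonged to no list. Gem, a small GTPase that inhibits calcium channels and reshapes the cytoskeleton, read 105, 86.0 and 63.8 in controls and 939, 1069.8 and 1659.5 after noise. Its groups were far apart and the third noise array was the highest, with a change of 3.56 ± 0.31 (adjusted p from limma 0.00028). Csn3, which encodes the milk protein kappa-casein, read 22.0, 9.2 and 26.1 in controls and 220.4, 253 and 235 after noise. The controls were at the dim end of the array and the 3 noise arrays nearly equal, with a change of 2.76 ± 0.27. Csn3 read 48.8 or less on every other array of the series, so it entered the test through these noise arrays. Dio2, the deiodinase that turns the thyroid prohormone into its active form, read 242, 250.2 and 313 in controls and 659, 838 and 831 after noise, a change of 1.46 ± 0.18. Its noise arrays all lay above the controls, and the first was the lowest of them. Gpr3, a receptor that raises cyclic AMP without a ligand, rose by 1.81 ± 0.29, with dim controls of 26.7, 18.6 and 35.6. With any 1 noise array removed, Gpr3 fell under the filter. Wdr92, a WD-repeat protein read at 4289.7 or more on every array, rose by 1.02 ± 0.18.

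The largest uncalled differences in this direction without overlap between groups were Bcl3, Junb by its brighter probe set, Epha2, Maff, Fosb, Arnt, Lgals3 and Ch25h. Epha2, an ephrin receptor, was at 1.95 ± 0.45, Arnt, a partner of the hypoxia factors, at 1.65 ± 0.40, the galectin Lgals3 at 1.64 ± 0.35 and Ch25h, which makes an oxysterol, at 1.63 ± 0.31. Over all genes, 6.04% lay wholly above the controls.

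The 4 falls were smaller than the largest rises. Msx3, a homeobox gene, read 946, 1161 and 1032 in controls and 398, 415 and 402 after noise. Both groups were tight, and the change of -1.34 ± 0.16 (adjusted p from limma 0.0021) was the largest of the 4. Kl, the klotho co-receptor of FGF23 that takes part in phosphate and calcium balance, read 1417, 2047 and 1236 in controls and 739, 524 and 674 after noise. The groups did not overlap, the second control was the highest, and the change was -1.23 ± 0.20. Kl was the single call among 8 tested klotho, vitamin D and calcium transport genes, with the phosphate transporter Slc20a1 at 0.71 ± 0.20 and Fgfr1, the receptor that klotho binds, at 0.44 ± 0.16. Aass, an enzyme of lysine breakdown, changed by -1.03 ± 0.16, and Nde1, which guides the dynein motor, by -0.71 ± 0.13.

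Among uncalled genes that lay wholly below the controls (10.5% of all genes), the largest differences were those of Tmem214 (-1.52 ± 0.40), Dhx32 (-1.28 ± 0.39), Ikbke (-1.22 ± 0.27), Cox7a1 (-1.18 ± 0.34), Nudt5 (-1.18 ± 0.56), Asgr1 (-1.17 ± 0.41), Brix1 (-1.16 ± 0.29) and Ormdl1 (-1.14 ± 0.41). Nudt5 read 25.5 on noise 1, and 169.9 and 219 on noise 2 and 3. Ikbke, a kinase of innate immune signalling, was between 40.0 and 59.8 after noise against 98.7 to 136 in controls. Of 28 respiratory chain genes of mitochondria, 22 were lower with a median of -0.15 and 0 were called (2 at an unadjusted p under 0.05), led by Cox5b at -0.34 ± 0.11. Without control 2 and noise 1 the median was -0.05. It was -0.27 on the first noise array, below 0.01 in size on the second and -0.09 on the third. Norrin and Wnt genes had 0 calls among 19, with 4 at an unadjusted p under 0.05, and Ndp, which encodes norrin, a factor of retinal and cochlear vessels, was at -0.56 ± 0.17.

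Defining markers of the cochlea ranged from among the brightest signals to the floor. Over the 6 arrays the cochlin gene Coch read between 12604 and 18800, the gap junction gene Gjb2 between 9075 and 15698, the stria transporter Slc12a2 between 8623 and 10743, and Ocm, a calcium-binding protein of outer hair cells, between 1799.7 and 3062. Other markers were too dim to be tested. Among them were the hair cell factors Atoh1 (median signal over the 6 arrays 7.75) and Lhx3 (31.1), the supporting cell genes Prox1 (45.2) and Hes5 (21.4 or less), and the stria and pigment cell genes Tyrp1 (28.9 or less), Mitf (26.8), Ednrb (19.0), Esrrb (25.1) and Met (3.85). None of the lists for cochlear cells had a called gene. Hair cell and tectorial membrane markers had a median change of 0.03 (9 genes, 2 at an unadjusted p under 0.05), supporting cell markers 0.10 (11 genes, 2), stria vascularis markers -0.09 (8 genes, 0) and Schwann cell markers -0.09 (11 genes, 1). Myo6, a hair cell myosin, was at -0.72 ± 0.28 by its brightest probe set, with 711 on noise 1 and 1789 and 1833 on noise 2 and 3. Its other 2 probe sets did not show this. The connexin Gjb6 was at -0.63 ± 0.25 by its brightest probe set, where the groups overlapped. A dimmer tested one of Gjb6 read 3127, 2616 and 2550 in controls and 2512, 3130 and 2344 after noise, overlapping as well. Without quantile normalization the hair cell median was -0.01 and the Schwann cell median 0.03. The supporting cell median was -0.03 without control 2 and noise 1, -0.01 without both arrays of high Gapdh ratio, -0.02 with array weights and -0.14 as the mean of all probe sets of a gene. None of these 3 medians has a settled sign. Ion transport genes of the stria had a median of 0.09 over 11, with 0 called and 0 at an unadjusted p under 0.05.

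All 18 markers of spiral ganglion neurons, which carry the signal to the brain, were higher, but the differences were small, with a median of 0.16, 0 called and 1 at an unadjusted p under 0.05. Their summed normalized signal was 40686 on control 1, 30028 on control 2 and 38353 on control 3, and between 38043 and 43859 after noise. The second control was thus the one low array. Control 2 also had the highest Gapdh 3′/5′ ratio, a sign of RNA quality, and without it and the first noise array of B6.CAST, which had the next highest ratio, the median was 0.02.

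Blood cell markers varied widely between arrays of a group. Neutrophil markers had a summed normalized signal of 4187, 13303 and 22478 on the controls and 40094, 13855 and 17078 on the noise arrays. Of 16 tested markers 15 were higher with a median of 0.76 (0.45 without control 2 and noise 1), and 0 were called (2 at an unadjusted p under 0.05), and the groups overlapped for Ngp, Chil3, Lcn2 and Elane. Their median was 1.92 on noise 1, 0.23 on noise 2 and 0.39 on noise 3. Erythroid markers ranged from 16177 to 35736 in controls and from 25773 to 41260 after noise, with a median of 0.35 (0.03 without control 2 and noise 1) and 0 called or at an unadjusted p under 0.05. Macrophage markers ranged from 4212 to 7027 and from 6534 to 9054, with a median of 0.25, 0 of 16 called and 5 at an unadjusted p under 0.05. Lymphocyte markers ranged from 789.8 to 1373 and from 1024 to 2208 (0 of 9 called, 2 at an unadjusted p under 0.05), and the T cell gene Cd3d was at 23.6 or less. Bone markers had a median of 0.13 (-0.13 with array weights, 0 of 10 called, 1 at an unadjusted p under 0.05), muscle markers -0.16 (0.02 without quantile normalization, 0 of 16, 1) and endothelial markers 0.05 (0 of 16, 0). On noise 1, where neutrophil markers were highest, Socs3 (both probe sets) and Cxcl1 were the highest of the 3 noise arrays, and Ccl2 and Ccl7 the lowest. The median of the NF-kappaB list was 0.63 on noise 1, 0.37 on noise 2 and 0.44 on noise 3. The part of blood cells in these values was not tested.

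**Figure D4:**
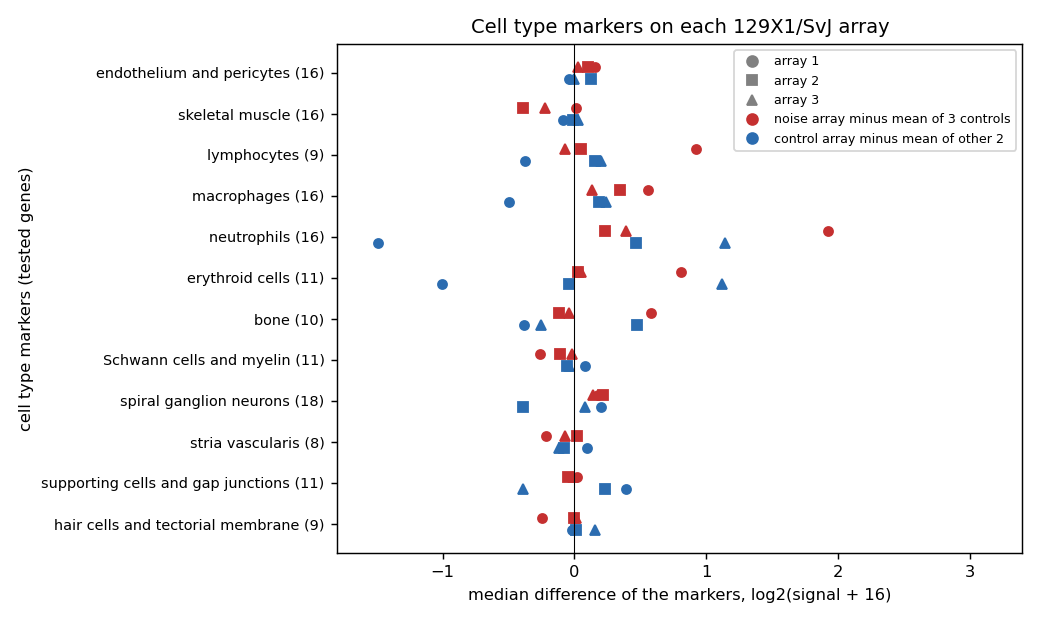
Median difference of each list of cell type markers on the log2(signal + 16) scale, each noise array against the mean of the 3 controls (red) and each control against the mean of the other 2 (blue). Neutrophil markers stand at 1.92 on the first noise array, and at -1.49 on control 1 and 1.14 on control 3.

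Single arrays weighed on the result. Arrays correlated across probe sets with a mean r of 0.910 for the first noise array and 0.943 to 0.955 for the other 5, each averaged over all other arrays of the series. For the Gapdh control probe sets, the 3′/5′ ratio was 29.2 on control 2 and 0.984 to 1.40 on the other 5, and that of Actb ranged from 1.61 on noise 1 to 6.43 on control 2. The first noise array was the highest of the noise arrays for 31 of the 40 called rises and the lowest for 6. Over these 40, the median difference from the controls was 2.13, 1.60 and 1.55 on noise arrays 1 to 3. Over all probe sets the SD of that difference was 0.73, 0.48 and 0.37.

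**Figure D5:**
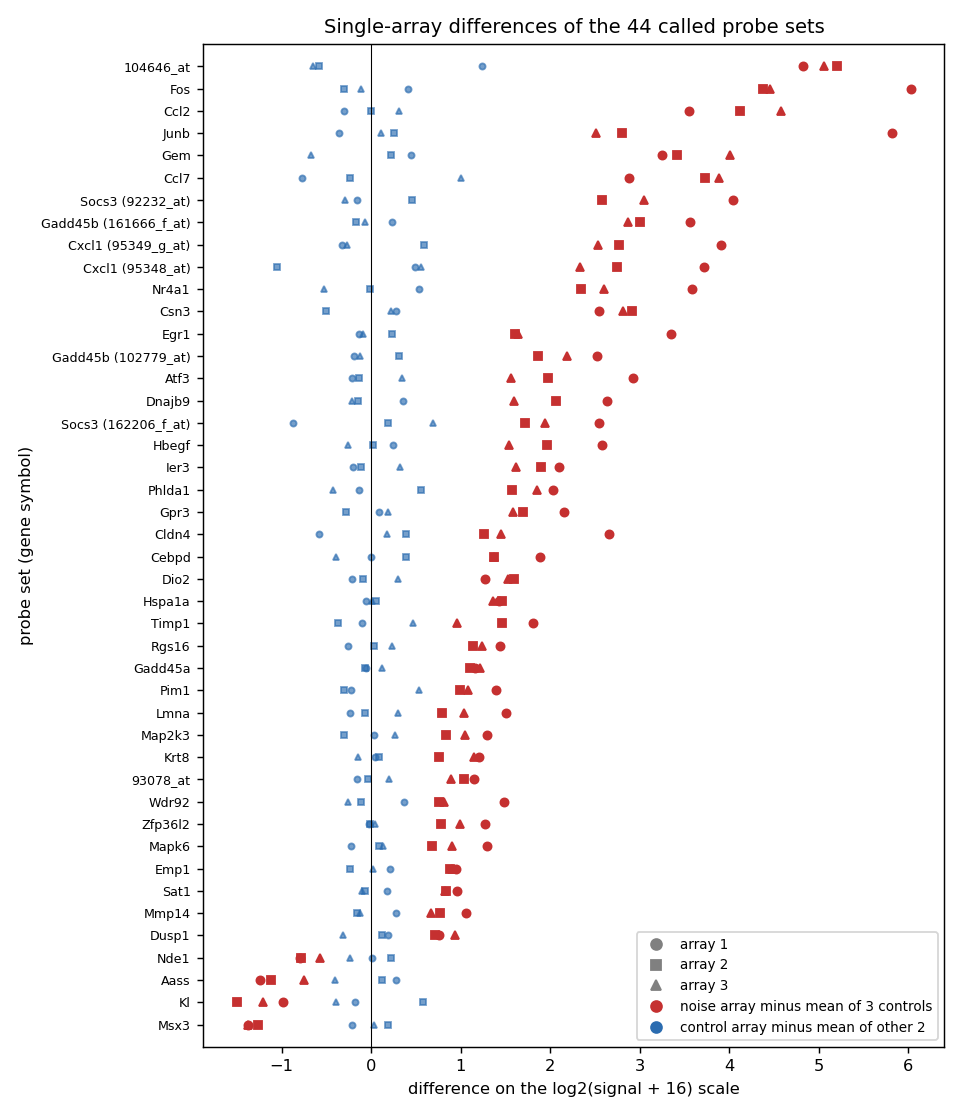
Difference of each noise array from the mean of the 3 controls (red) and of each control from the mean of the other 2 (blue), log2(signal + 16), for the 44 called probe sets. Red and blue points do not mix for any probe set, and the first noise array (circle) is the rightmost red point in 31 of the 40 rises.

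With any single array of the 10 removed, 20 of the 44 calls held in every fit: Fos, Ccl2, Gem, Nr4a1, Ier3, both probe sets of Gadd45b, Gadd45a, 1 probe set each of Socs3 and Cxcl1, Cebpd, Hbegf, Phlda1, Csn3, Dio2, Hspa1a, Sat1, Msx3 and both unnamed probe sets. The count of calls was 23, 22 and 27 without controls 1, 2 and 3, and 32, 41 and 46 without noise arrays 1, 2 and 3. The calls lost without control 1 or control 2 included Ccl7, with an adjusted p from limma of 0.069 in both fits, and those of Kl and Aass, at most 0.091. Egr1, Junb, Wdr92 and Atf3 were lost without any 1 of the 3 controls, at up to 0.18, 0.19, 0.18 and 0.079. Over the 10 fits, Junb, Wdr92 and Timp1 were lost in 7 each, Egr1 in 6 and Krt8 in 5. All of these but Krt8 were also lost in fits that left out a B6.CAST array. For Timp1 the adjusted p from limma reached 0.19. Cldn4, Mapk6 and Mmp14 were lost in 9 of the 10 fits, and Nde1 in all 10, with an adjusted p of up to 0.24. Dusp1, Rgs16 and Gpr3 were lost or fell under the filter in 6 fits each. Without control 2 and noise 1 together, 18 calls remained, all among the 44. They held Fos at 4.34 ± 0.27, Ccl2 at 4.37 ± 0.51, Gem at 3.81 ± 0.38 and Msx3 at -1.26 ± 0.19. Without both arrays of high Gapdh ratio, 22 remained, also all among the 44.

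In B6.CAST, 39 of the 40 called rises of 129X1/SvJ were also higher with noise and all 4 falls were also lower. For 39 of the 40 the rise was smaller in B6.CAST, with a median of 0.81 against 1.82. These probe sets were chosen by their change in 129X1/SvJ, which alone favours a smaller change elsewhere. The test of the difference between the strains called 0 of 8695 probe sets in limma (smallest adjusted p 0.52), and 2.98% had an unadjusted p under 0.05, so no single gene was shown to respond differently. The largest differences among called genes, B6.CAST minus 129X1/SvJ, were those of Csn3 (-2.48 ± 0.43), Junb (-2.30 ± 1.11), Gadd45b (-2.07 ± 0.36) and Dnajb9 (-2.01 ± 0.50), each with an adjusted p of 0.52 or more. Csn3 read 32.6 and 30.8 on the B6.CAST controls and 37.5 and 48.8 after noise, within a narrow range. Gem, in contrast, changed by 3.46 ± 0.38 in B6.CAST and 3.56 ± 0.31 in 129X1/SvJ, Ccl2 by 3.66 ± 0.51 and 4.08 ± 0.41, and Dio2 by 1.28 ± 0.21 and 1.46 ± 0.18. Hspa1a changed by 0.20 ± 0.19 in B6.CAST against 1.42 ± 0.15. Neutrophil markers ran the other way in B6.CAST, with a median of -1.72, and that difference was not tested.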

How the data were processed

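Cochlear RNA of 10 samples was measured on 1-colour Affymetrix arrays, each labelled with biotin, per the labels. The authors deposited linear signal intensities per probe set, already scaled array by array, as the values show, with a mean near 500 on every array once 2% of probe sets were trimmed at each end. The software behind these intensities is not given in the sources used here. Scaling removes any difference in total signal.

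From the intensities, log2(intensity + 16) was computed and quantile normalized, and the dimmest 30% of non-control probe sets were left out. This scale understates changes of dim genes. A model of 4 group means over the 10 arrays was fitted in limma 3.58.1 (R 4.3.3), with a variance trend and Benjamini-Hochberg adjustment at 0.05. The p-values measure the spread between pools, and the number of arrays limits the precision. On simulated data over 8695 probe sets, the noise comparison in 129X1/SvJ recovered 47 of 100 changes of size 1 and 98 of 100 of size 2 (log2), with 5 false calls among 150. The simulation gave every array the same spread for a probe set. It did not model an array that stands apart, such as noise 1, so these rates may not hold for the real arrays.

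The platform annotation gave gene names, updated through the RefSeq table of GRCm38.p6. Probe sets with a letter before "at" (such as Gadd45b, Atf3 and Lmna) can match related sequences. Promoters were read from RefSeq (GRCm38.p6).

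The genes and lists were chosen with earlier results of these data known. Named genes are all called ones, up to 4 per list with the smallest p, up to 8 uncalled per direction with the largest change and no overlap, and up to 4 called with the largest strain difference. Further list members, among them Fkbp5, Per1, Tsc22d3, Hspa8, Hspd1 and Egfr, are named outside these rules and by no fixed criterion. Alternatives changed the pseudocount, the filter, the normalization, the variance trend, the array weights, the arrays used and the threshold, and added a replicate block. Same-numbered control and noise arrays did not deviate together (r of -0.15, -0.18 and -0.39). With so few arrays in a group, these values cannot decide whether the numbers pair samples.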

Additional observations from a re-analysis of the deposited data

Results flagged for a closer look

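3 genes too dim to enter the test passed limma's threshold (Benjamini-Hochberg) when the filter on low values was dropped. Fosl1, a further AP-1 subunit, read 7.3, 7.2 and 6.4 on the control arrays and 148, 122 and 199.8 on the noise arrays, a change of 2.73 ± 0.39 (adjusted p from limma 0.018). In B6.CAST it read 5.7 and 8.7 in controls and 64.8 and 14.4 after noise. Hsd17b7, an enzyme of cholesterol synthesis, read 7.3, 4.3 and 3.7 in controls and 87.8, 34.7 and 26.4 after noise, a change of 1.37 ± 0.23 (adjusted p from limma 0.041). Rasgrf1, an exchange factor for Ras, read 42.4, 28.2 and 31.2 in controls and 3.3, 5.2 and 8.4 after noise, a change of -1.30 ± 0.22 (adjusted p from limma 0.046). The groups did not overlap for any of the 3, and 1 or both groups were near the dimmest signals.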

How the results depend on the processing

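The 44 calls (40 higher, 4 lower) became 71 with estimated array weights (18 lower) and 68 at a threshold of 0.10 (11 lower). Without a variance trend or on the 129X1/SvJ arrays alone, 2 were lower. With the replicate block, 25 were called (24 higher, 1 lower). Whether the numbers pair samples is not known here, so this fit was not read as a paired effect. Leaving out 1 array gave 22 to 46 calls, with 21 to 40 higher and 1 to 10 lower. The fewest came without control 2 and the most without noise 3. Alternatives chosen after seeing the data left out control 2 and noise 1 (18 calls, 17 higher, 1 lower) or both arrays of high Gapdh ratio (22, 21 and 1). Fewer arrays were used there, and otherwise the cause was not tested. The strain difference had 0 calls under every alternative run. 3 uncalled genes changed sign: Tgfa (0.22) ranged from -0.0067 without noise 3 to 0.56 without control 1, and without control 2 and noise 1 Gpx2 (0.25) was at -0.10 and Gjb2 (-0.35) at 0.0058. Dim signals limit Ccl2, Ccl7, Csn3, Gpr3, the called probe set of Junb and the dimmer one of Cxcl1, whose controls lay near background. On the control arrays of both strains all of these read under the lowest mean signal tested (42.9). They thus entered the test through noise arrays.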
